A study of Mus musculus with 41 samples.

Results

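Long noncoding transcripts other than those of the named snoRNA hosts were examined in mouse embryonic fibroblasts (MEFs). The members were all transcripts of the deposited RNA values with the annotated type lncRNA, without the genes Gas5 and Zfas1 and without genes whose symbol starts with Snhg. This rule took 15032 of 142552 transcripts, in 9932 of 55385 genes, and left out 97 lncRNA transcripts of snoRNA hosts. The rule goes by symbol, and 82 members in 51 genes still span an annotated snoRNA gene on their own strand, so that the set is not free of snoRNA hosts. The study sequenced polyadenylated RNA of MEFs to compare loss of Hbs1l, Pelo and Upf2 with a Cre control, beside ribosome profiling that is not used here. There were 11 RNA libraries, 3 control, 3 Hbs1l-/-, 2 Pelo-/- and 3 labelled Upf2-/-, and the submitters excluded a further Pelo-/- library as an outlier. All groups were C57BL/6 cells with the tamoxifen-inducible transgene Tg(CAG-Cre/Esr1), homozygous for the C57BL/6J allele of the brain-specific arginine tRNA gene n-Tr20 (n-Tr20 B6J/B6J), treated with 1 µM 4-hydroxytamoxifen for 48 h and collected on day 2 of passage 1. The controls carried the transgene alone, Hbs1l-/- cells came from Hbs1l fl/- embryos, and Pelo-/- and labelled Upf2-/- cells came from Pelo fl/fl and Upf2 fl/fl embryos. The paper describes the Hbs1l alleles on C57BL/6N and a Pelo allele made in C57BL/6J cells. Substrain may therefore differ with genotype, and its part was not tested. Each replicate was 1 dish of cells from 1 embryo, taken on E13.0, and all 11 libraries carry the same batch label. A culture in which recombination is incomplete holds a mixture of cells, and in such bulk RNA fewer cells of a type and less RNA per cell cannot be told apart.

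Many lncRNAs are capped, spliced and polyadenylated like mRNAs but are not annotated with a protein product. Those that reach the cytoplasm can be entered by ribosomes at short open reading frames (ORFs). UPF2 is a core factor of nonsense-mediated decay (NMD), which degrades RNAs on which a ribosome terminates upstream of an exon junction. PELO and HBS1L act together on ribosomes that stall on an RNA, and release them.

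The sequences of members on which the results turn are given first. The longest ORF from an ATG to a stop codon was read from the Gencode M21 transcripts (GRCm38), and the start and stop codons are in capitals. Pvt1-208 (chr15:62037986-62249528, plus strand) has 7 exons, and its longest ORF has 68 codons and ends 515 bases before the last exon junction. 5430416N02Rik-202 (chr5:100420842-100429535, minus strand) has 5 exons, and its ORF of 39 codons ends 169 bases before the last junction. Crnde-202 (chr8:92326033-92346870, minus strand) has 4 exons, and its ORF of 72 codons begins and ends in the last exon, so that no junction lies after its stop. No translation of these ORFs was measured here.
Pvt1-208: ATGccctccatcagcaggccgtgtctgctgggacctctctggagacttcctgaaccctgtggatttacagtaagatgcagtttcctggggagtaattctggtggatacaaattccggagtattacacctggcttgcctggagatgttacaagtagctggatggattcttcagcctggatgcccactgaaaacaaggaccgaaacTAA
5430416N02Rik-202: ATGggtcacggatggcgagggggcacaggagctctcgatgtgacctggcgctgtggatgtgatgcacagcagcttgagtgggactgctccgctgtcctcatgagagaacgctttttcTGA
Crnde-202: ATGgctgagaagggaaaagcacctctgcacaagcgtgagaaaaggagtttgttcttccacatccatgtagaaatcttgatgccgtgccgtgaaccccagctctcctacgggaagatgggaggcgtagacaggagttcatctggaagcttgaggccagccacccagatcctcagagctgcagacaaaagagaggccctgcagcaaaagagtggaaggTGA

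RefSeq promoters (GRCm38.p6, 250 bases before to 50 bases after the start) were available for 3671 member genes and are shown for 6 genes with higher RNA or isoforms in the labelled Upf2-/- libraries. Ftx (chrX:103623705-103624004), 2610307P16Rik (chr13:28885373-28885672), Lncpint (chr6:31218425-31218724), 5430416N02Rik (chr5:100429486-100429785) and Crnde (chr8:92356071-92356370) are on the minus strand. 2410006H16Rik (chr11:62602627-62602926) is on the plus strand. The last 3 were chosen after their values were seen. Capitals mark 4 motifs searched on both strands, namely TATAAA (the TATA box), CCAAT (which many factors bind), CACGTG (the E-box) and TGATGNAA (the core of the amino acid response element). No marked motif overlaps another.
Ftx: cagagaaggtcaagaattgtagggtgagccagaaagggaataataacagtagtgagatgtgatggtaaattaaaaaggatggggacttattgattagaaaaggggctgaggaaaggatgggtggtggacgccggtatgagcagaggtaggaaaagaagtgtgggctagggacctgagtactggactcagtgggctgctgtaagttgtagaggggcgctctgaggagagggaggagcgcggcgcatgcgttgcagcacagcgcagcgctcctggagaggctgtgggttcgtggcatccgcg
2610307P16Rik: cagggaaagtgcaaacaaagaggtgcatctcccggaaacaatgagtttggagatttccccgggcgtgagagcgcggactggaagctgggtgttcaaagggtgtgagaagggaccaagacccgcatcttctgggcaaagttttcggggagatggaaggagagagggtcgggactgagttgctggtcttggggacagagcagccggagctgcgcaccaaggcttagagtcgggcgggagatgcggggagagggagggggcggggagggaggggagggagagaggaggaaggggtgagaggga
Lncpint: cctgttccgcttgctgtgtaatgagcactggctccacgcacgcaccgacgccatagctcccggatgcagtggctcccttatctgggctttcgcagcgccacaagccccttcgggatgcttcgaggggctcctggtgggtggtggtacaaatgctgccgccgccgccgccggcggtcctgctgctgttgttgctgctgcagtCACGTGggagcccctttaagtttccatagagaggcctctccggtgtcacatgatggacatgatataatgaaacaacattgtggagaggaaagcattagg
5430416N02Rik: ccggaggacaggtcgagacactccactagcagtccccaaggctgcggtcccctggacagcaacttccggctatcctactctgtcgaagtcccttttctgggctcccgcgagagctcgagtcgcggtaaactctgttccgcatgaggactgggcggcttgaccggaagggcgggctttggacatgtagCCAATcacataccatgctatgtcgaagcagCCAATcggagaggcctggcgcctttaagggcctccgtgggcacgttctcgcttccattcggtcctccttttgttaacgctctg
Crnde: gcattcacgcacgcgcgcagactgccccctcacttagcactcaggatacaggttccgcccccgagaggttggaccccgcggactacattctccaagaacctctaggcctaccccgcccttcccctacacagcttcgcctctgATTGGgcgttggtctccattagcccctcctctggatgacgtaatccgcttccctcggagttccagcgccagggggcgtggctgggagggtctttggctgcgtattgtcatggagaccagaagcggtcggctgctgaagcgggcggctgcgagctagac
2410006H16Rik: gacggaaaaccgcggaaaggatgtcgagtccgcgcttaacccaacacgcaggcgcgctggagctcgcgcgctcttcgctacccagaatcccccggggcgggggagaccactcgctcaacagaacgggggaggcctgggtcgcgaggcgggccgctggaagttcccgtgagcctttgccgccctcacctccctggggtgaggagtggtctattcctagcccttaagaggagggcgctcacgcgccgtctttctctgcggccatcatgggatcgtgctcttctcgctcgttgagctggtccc
The promoter of 5430416N02Rik holds 2 CCAAT boxes, that of Crnde holds 1 on the other strand, and that of Lncpint holds an E-box, which reads the same on both strands. CCAAT was found in 37.4% of all 32851 promoters, in 36.7% of the 654 promoters of member genes tested for the labelled Upf2-/- libraries and in 42.9% of the 91 promoters of those that were higher. CACGTG was found in 7.15%, 9.94% and 14.3% of the same sets. TATAAA was found in 13.6%, 10.2% and 10.99%, and TGATGNAA in 3.97%, 2.60% and 5.49%. These shares are descriptions without a test.

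The authors quantified each transcript with kallisto as an estimated count and as TPM, a level scaled for transcript length and library size. Library totals lay between 22713020 and 86424953 estimated counts. Hbs1l was at 5.29, 6.00 and 6.24 TPM in the Hbs1l-/- libraries and at 29.0 to 38.3 TPM in controls. Pelo was at 0.435 and 0.0698 TPM in the Pelo-/- libraries and at 14.8 to 17.5 TPM in controls. Upf2 went against its label. It was at 20.6, 14.4 and 8.61 TPM in the labelled Upf2-/- libraries and at 3.82, 5.63 and 4.51 TPM in controls. The isoform Upf2-202 made up much of this, with 4.45 to 10.7 TPM there and at most 0.546 TPM in controls. RNA level does not show whether the targeted exons were removed, so these libraries are named by their label throughout, and each direction below is that of the label. Of the markers checked, the 7 fibroblast genes summed to 4869 to 6503 TPM in controls, and the smooth muscle genes Acta2, Myh11, Tagln and Cnn1 summed to 12061 to 13726 TPM. Erythroid and liver markers stayed below 1 TPM in every library.

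Between 4076 and 6130 members had a value above 0 in a library, and 5600 members had no count in any. Between 340 and 480 member genes per library reached 1 TPM. A few member genes had high levels. AY036118 lies with Gm42418 and Gm26917 in a region of chromosome 17 known to hold ribosomal RNA sequence. It was at 15405 TPM in control replicate 3, at 2544 TPM in Pelo-/- replicate 2 and at 2811 TPM in labelled Upf2-/- replicate 1, and at most 15.5 TPM in the other 8 libraries. Bc1, a short RNA known from neurons, was at 1197, 1237 and 1628 TPM in controls, and the imprinted H19, the precursor of Mir675, was at 880.5, 1353 and 1634 TPM.

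Members made up 0.589%, 0.652% and 2.21% of all TPM in controls and 1.16%, 0.925% and 0.939% in the labelled Upf2-/- libraries. The groups overlapped (exact permutation test, two-sided, p = 1, n = 3 and 3, where 0.1 is the smallest p this design allows). The share was 0.778% to 0.918% in Hbs1l-/- (p = 1) and 0.622% and 0.838% in Pelo-/- libraries (p = 0.9), by the same exact permutation test. The means differed from that of controls by -0.142, -0.312 and -0.421 percentage points in labelled Upf2-/-, Hbs1l-/- and Pelo-/- libraries, and without control replicate 3 by 0.389, 0.218 and 0.110. Without AY036118 the share was 0.778% to 0.918% in Hbs1l-/- libraries, and 0.882% to 0.939% in labelled Upf2-/- libraries, all above the controls at 0.589% to 0.671%. Without members that overlap another gene it was 0.7201% ± 0.0700 in Hbs1l-/- and 0.521% ± 0.0533 in control libraries (SD, n = 3 each, exact permutation p = 0.1, the smallest possible), and 0.788% ± 0.0251 (SD, n = 3) in labelled Upf2-/- libraries (p = 0.1 by the same exact permutation test). Without the 3 most abundant genes, AY036118, Bc1 and H19, the share was 0.678% ± 0.0208 (SD, n = 3) in labelled Upf2-/- libraries and 0.373% ± 0.0247 (SD, n = 3) in controls. These did not overlap, at the smallest exact permutation p of 0.1. Without the same 3 genes the Hbs1l-/- libraries were at 0.354% ± 0.00378 (SD, n = 3), which overlapped the controls (exact permutation p = 0.4). Members that span a snoRNA gene made up 0.242% to 0.258% of TPM in the labelled Upf2-/- libraries and 0.0448% to 0.0590% in the other 8.

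**Figure D1:**
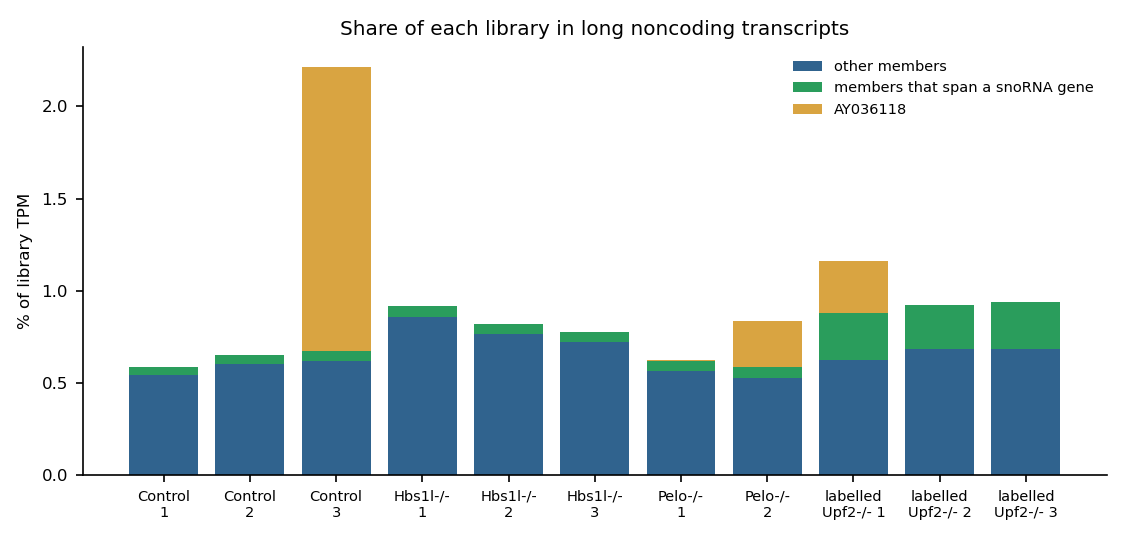
The height of each bar is the percent of a library's TPM in long noncoding transcripts, for each of the 11 libraries, split into AY036118, members that span a snoRNA gene and all others. AY036118 alone lifts control replicate 3 to 2.21%, and the snoRNA-spanning segment is 0.242% to 0.258% in the labelled Upf2-/- libraries against at most 0.0590% elsewhere.

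The labelled Upf2-/- libraries were compared with controls first. With edgeR's quasi-likelihood fit, p-values adjusted over all transcripts (Benjamini-Hochberg) and a threshold of 0.05, 53 of 1322 tested members were higher in the labelled Upf2-/- libraries than in controls, 4.01%, where 4.37% of all 40620 tested transcripts were higher. None was lower by edgeR, against 0.985% of all transcripts, while 235 members had an unadjusted p below 0.05 and DESeq2 called 15 lower, where it called 2167 of all transcripts lower. Counts summed per gene showed more. Of 1134 tested member genes 150 were higher (13.2%) and 21 lower (1.85%), where 13.2% of all 15983 genes were higher and 6.76% lower. The median log2 fold change was 0.18 over member genes and -0.02 over all genes tested. The share of higher members was thus near that of all features at both levels, and the share of lower members was below it. Without control replicate 1, 2 or 3 member genes called higher numbered 131, 101 and 85 and those called lower 6, 9 and 17, where all genes called numbered 1716, 1370 and 1382 higher and 671, 430 and 476 lower. Without labelled Upf2-/- replicate 1, 2 or 3 the member genes called numbered 134, 96 and 104 higher and 23, 3 and 7 lower. All genes called there numbered 2047, 1600 and 1804 higher and 1154, 395 and 597 lower. At the transcript level the 53 calls became 36 without control replicate 1 and 18 to 31 without any of the other 5 libraries, where 1045 and 511 to 1184 of all transcripts were higher.

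**Figure D2:**
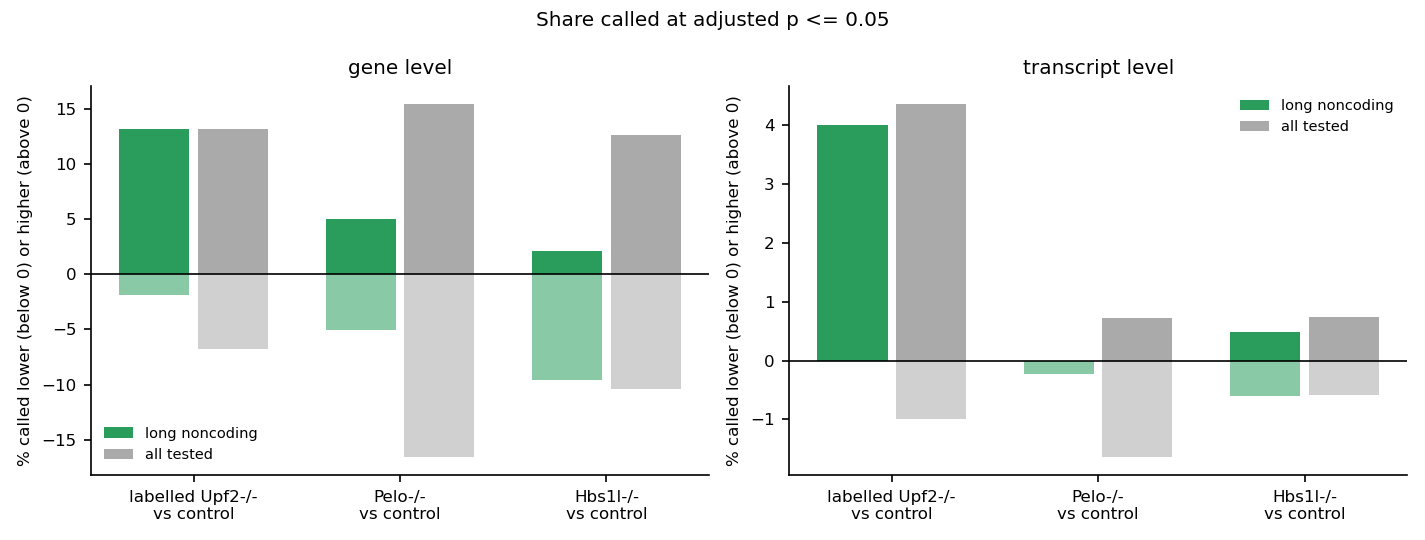
Bars above 0 give the percent of tested features called higher and paler bars below 0 the percent called lower than control, for long noncoding features (green) and all tested features (grey), by gene on the left and by transcript on the right. Among genes, the share of long noncoding genes called lower in the labelled Upf2-/- libraries is 1.85% against 6.76% of all genes, and in Pelo-/- both shares are 5.05% against 15.5% and 16.6%.

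The called members of high level included genes that span snoRNA genes. 2410006H16Rik (chromosome 11), which spans Snord49a, Snord49b and Snord65, was at 187, 180.1 and 231 TPM in controls and at 1629, 1527 and 1752 TPM in the labelled Upf2-/- libraries. Every labelled Upf2-/- library was above every other library, since the Pelo-/- and Hbs1l-/- libraries lay between 211 and 254 TPM. Its log2 fold change was 3.07 (SE 0.15, edgeR adjusted p = 5.4e-07), or 8.38-fold. 1110038B12Rik (chromosome 17), which spans Snord52, was at 166, 156 and 177 TPM in controls and at 726, 691 and 616 TPM in the labelled Upf2-/- libraries (log2 fold change 2.197, SE 0.12, edgeR adjusted p = 1.2e-06). Its other 5 libraries, at 146 to 172 TPM, overlapped the controls. Epb41l4aos, on the opposite strand to Epb41l4a and spanning the snoRNA gene Gm23639, was at 26.4, 30.7 and 25.2 TPM in controls and rose to 131, 95.2 and 93.6 TPM (log2 fold change 2.01, SE 0.17, edgeR adjusted p = 2.7e-05). Of 16 tested member genes that span a snoRNA gene, 8 were higher and 1 lower, with a median log2 fold change of 0.65, where 13.2% of all 15983 genes were higher and 6.76% lower. Gas5, Zfas1 and Snhg genes, which the rule left out, had 12 of 19 higher, with a median of 1.38. Without the snoRNA-spanning members, 142 of 1118 member genes (12.7%) and 48 of 1301 member transcripts (3.69%) were higher.

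Among members without an annotated snoRNA gene, Pvt1 had the lowest adjusted p. Pvt1, a multi-exon gene beside Myc and a known target of p53, was at 10.7, 11.9 and 12.4 TPM in controls and at 148, 133 and 111 TPM in the labelled Upf2-/- libraries. The groups lay far apart, with a log2 fold change of 3.57 (SE 0.12, edgeR adjusted p = 4e-08), or 11.9-fold. All 10 Pvt1 isoforms were tested and 6 were higher, so that the rise was not that of 1 isoform. Pvt1-208, whose ORF is shown above, rose from 1.39, 1.36 and 1.78 TPM to 32.2, 25.9 and 24.3 TPM (log2 fold change 4.13, SE 0.19, edgeR adjusted p = 0.00042). Pvt1-201 rose from 2.79, 3.47 and 2.70 TPM to 44.0, 38.8 and 35.5 TPM. Pvt1-209 was at 0.911, 0.326 and 0.544 TPM and at 0.670, 1.30 and 0.676 TPM in the same order, and its groups overlapped. Pvt1 shares exon positions with H2afy3.

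5430416N02Rik, a gene of chromosome 5 with 5 exons in its longest isoform, was at 7.45, 8.24 and 8.83 TPM in controls and at 100.3, 85.6 and 73.8 TPM in the labelled Upf2-/- libraries (log2 fold change 3.10, SE 0.15, edgeR adjusted p = 5.1e-07). The difference lay in 5430416N02Rik-202 with the ORF shown above, at 6.54 to 7.95 TPM in controls and 72.7 to 99.0 TPM in the labelled Upf2-/- libraries. 5430416N02Rik-201 was at 0.372 to 0.473 TPM and 0.474 to 0.622 TPM and did not pass the test. Crnde, known for high levels in colorectal tumours, was at 1.62, 2.12 and 2.08 TPM and at 14.3, 13.2 and 14.2 TPM (log2 fold change 3.02, SE 0.20, edgeR adjusted p = 4.9e-06). Crnde-202 was at 0.534, 0.763 and 1.19 TPM and at 7.94, 7.27 and 8.58 TPM. The longest ORF of this isoform, shown above, ends after the last junction. 2610307P16Rik, a gene of chromosome 13 that spans Mir6368, was at 0.615, 1.11 and 0.697 TPM and at 9.96, 7.39 and 8.25 TPM (log2 fold change 3.22, SE 0.24, edgeR adjusted p = 1.3e-05). Of its 7 isoforms 5 were tested and 4 were higher. For each of these genes every labelled Upf2-/- library was above all 8 others.

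**Figure D3:**
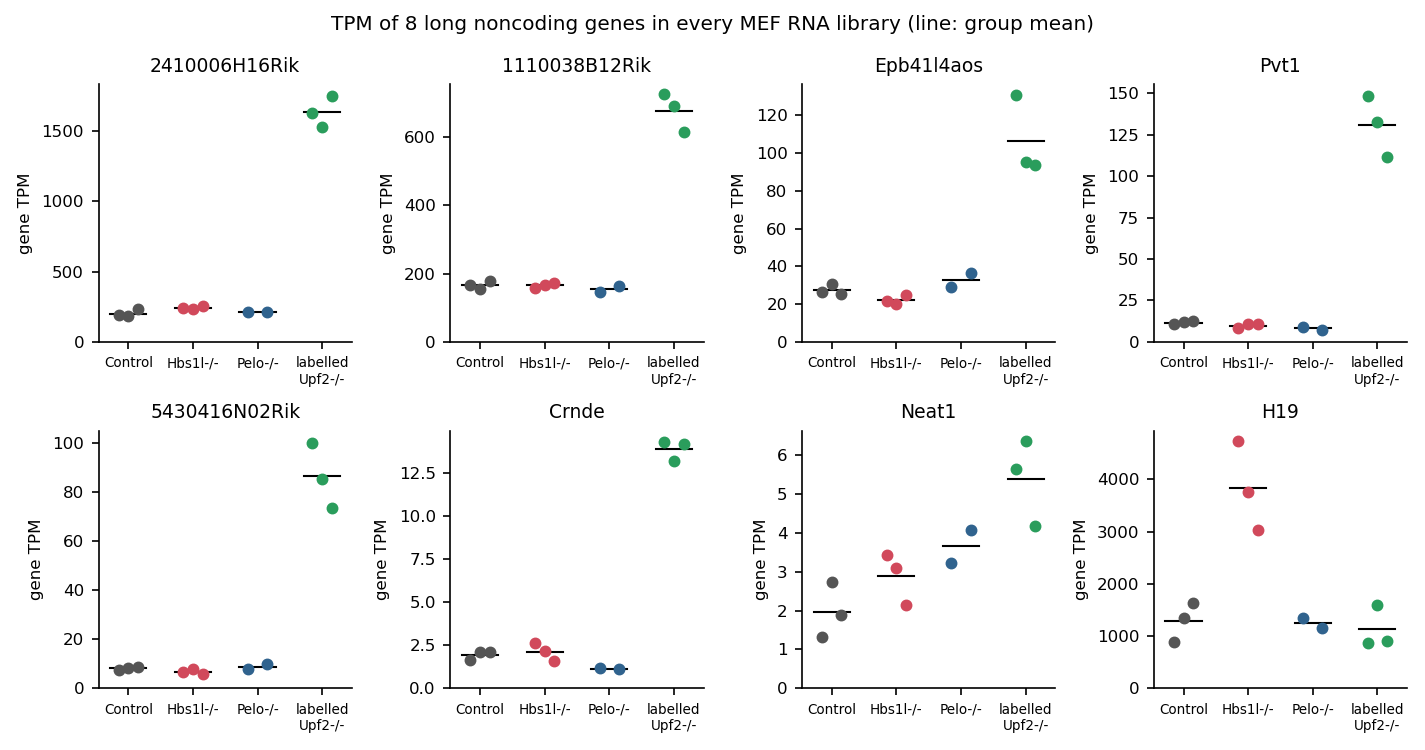
Each panel plots the gene level in TPM on a linear axis from 0 for every library of the 4 groups, with a line at the group mean. For 2410006H16Rik, 1110038B12Rik, Epb41l4aos, Pvt1, 5430416N02Rik and Crnde the 3 labelled Upf2-/- libraries stand above all others, for Neat1 the groups lie closer, and for H19 the 3 Hbs1l-/- libraries are highest at 3034 to 4734 TPM.

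The 10 largest increases by gene, a use of the naming rule at the gene level chosen after the values were seen, also held genes of low level. Gm28306 was at 0.405, 0 and 0.126 TPM in controls and at 3.78, 3.86 and 2.97 TPM, and its exons overlap Ccdc115 and Imp4. BC065397, which overlaps Morf4l2, was at 0.344, 0.223 and 0.197 TPM and at 2.72, 2.32 and 3.10 TPM. Gm3764, Gm12655 and A930015D03Rik were at 0.217 TPM or lower in every control and at 0.493 to 1.69 TPM in the labelled Upf2-/- libraries. These 5 genes passed the test under every alternative that gave a value. The reads of overlapping genes cannot be told apart here, since the stated options of the quantification name no strand setting.

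Some isoforms were listed at 0 in controls. Kallisto can move reads between isoforms, so a 0 may reflect that assignment. Ftx-204, an isoform of the X inactivation centre gene Ftx, was listed at 0 in all 3 controls and at 0.380, 0.807 and 0.682 TPM in the labelled Upf2-/- libraries. Set against 3 counts per library it was at least 11.6-fold higher, but the call was lost without any 1 of the labelled Upf2-/- libraries, with log2 fold changes of 8.39 to 9.01. Ftx as a gene was at 9.61, 10.1 and 14.1 TPM and at 11.3 to 12.3 TPM and did not pass the test. Rmrp, the RNA of RNase MRP, was at 0 in controls and both Pelo-/- libraries, at 4.15, 6.72 and 2.47 TPM in the labelled Upf2-/- libraries, and at 0, 4.88 and 5.94 TPM in Hbs1l-/- libraries. It was at least 4.83-fold higher than the same floor in the labelled Upf2-/- libraries, is not expected to carry a poly(A) tail, and overlaps Ccdc107. 2610307P16Rik-206 was at least 3.18-fold higher by the same measure. Rmrp-202 was not called without any 1 of the controls or labelled Upf2-/- replicates 1 and 3, 2610307P16Rik-206 not without control replicates 1 or 2 or labelled Upf2-/- replicate 1, and Rmrp as a gene not by DESeq2.

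Gm47283-202 lies in the pairing region of the sex chromosomes, and it was at 0.718, 0.667 and 0.699 TPM in controls and at 13.3, 12.8 and 23.4 TPM in the labelled Upf2-/- libraries (log2 fold change 4.57, SE 0.40, edgeR adjusted p = 0.0036). Its gene varied within controls, at 85.1, 89.5 and 21.1 TPM, and so did its neighbour Gm21887, at 28.8, 52.4 and 0.346 TPM. Control replicate 3 is the one with Y-linked RNA (Ddx3y 10.6 TPM) and near 0 Xist (0.0134 TPM), against Xist at 2.76 and 6.69 TPM in replicates 1 and 2. Of the labelled Upf2-/- libraries, replicates 1 and 2 had Ddx3y at 8.93 and 7.80 TPM and replicate 3 had Xist at 3.15 TPM. The part of sex in these members was not tested.

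Of 7 nuclear lncRNAs, 3 were higher in the labelled Upf2-/- libraries and none was lower, with 4 that did not pass, where 13.2% of all genes were higher and 6.76% lower, and the same background holds for each list below. Neat1, the scaffold of paraspeckles, was at 1.32, 2.73 and 1.87 TPM in controls and at 5.64, 6.37 and 4.17 TPM (log2 fold change 1.37, SE 0.18, edgeR adjusted p = 5e-04). Meg3, a maternally expressed imprinted RNA, was at 29.98, 33.9 and 30.5 TPM and at 42.1, 59.9 and 47.3 TPM (log2 fold change 0.61, SE 0.12, edgeR adjusted p = 0.0059). Firre, which shapes nuclear organisation, rose by 0.84 (SE 0.20, edgeR adjusted p = 0.014) but not without control replicate 3 (0.76). Malat1, of nuclear speckles, was at 58.6, 91.1 and 53.9 TPM and at 78.1, 74.1 and 65.5 TPM, and these overlapped.

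Of 4 genes linked to p53, Pvt1, Neat1 and Lncpint were higher and Trp53cor1 did not pass (log2 fold change -0.53), with a list median of 1.24. Lncpint, induced by p53, was at 0.921, 2.09 and 1.08 TPM and at 1.85, 3.43 and 2.63 TPM, and overlapped (log2 fold change 1.12, SE 0.27, edgeR adjusted p = 0.016). Its call was lost without control replicate 3 (0.99) or labelled Upf2-/- replicate 2 (0.95). Of 7 imprinted RNAs only Meg3 was called, and H19, Rian, Mirg, Airn, Kcnq1ot1 and Peg13 had log2 fold changes from -0.25 to 0.16. None of 3 tested X inactivation genes and none of 7 Hox cluster lncRNAs passed against control in any mutant, by edgeR or DESeq2. Xist-201 was near 0 in control replicate 3, Pelo-/- replicate 1 and labelled Upf2-/- replicates 1 and 2. It was at 2.32 TPM in Pelo-/- replicate 2 and at 2.45, 3.91 and 2.68 TPM in Hbs1l-/- libraries. With such spread within groups, a missing call of Xist says little. Unadjusted edgeR p-values were below 0.05 for 1 X inactivation gene and 1 Hox lncRNA in Pelo-/- and for 4 Hox lncRNAs in Hbs1l-/- libraries. Of 13 miRNA hosts C430049B03Rik alone was higher (log2 fold change 0.85), a call lost without control replicate 2 (0.78) or control replicate 3 (0.81), and of 59 genes named as opposite strand transcripts 13 were higher and 1, Rab26os, was lower. Among 10 other studied lncRNAs, Rmrp, Crnde, Epb41l4aos and Bvht were higher, and Bvht, known from the cardiac lineage, rose from 3.39, 4.13 and 4.79 TPM to 7.65, 8.68 and 6.14 TPM (log2 fold change 0.88, SE 0.20, edgeR adjusted p = 0.012).

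Members higher in the labelled Upf2-/- libraries were sorted by structure, as a description without a test. Of tested members with 3 or more exons, 42 of 569 were higher (7.38%, median log2 fold change 0.37), where 4.37% of all transcripts were higher (median 0.00). Of those with 2 exons 6 of 446 (1.35%) and of those with 1 exon 3 of 243 (1.23%) were higher, with medians of 0.01 and -0.04. Among spliced members whose longest ORF stops over 50 bases before the last junction, 26 of 235 were higher (11.1%, median 0.42), and among all other spliced members 22 of 780 (2.82%, median 0.10). Isoforms of 1 gene were counted separately, and 6 of Pvt1 and 4 of 2610307P16Rik were among the 53 called members. The ORF classes were not counted by gene. Transcripts annotated as NMD targets, which are not members, had 434 of 2945 higher (14.7%, median 0.88), and those of Gas5, Zfas1 and Snhg genes 20 of 93 (21.5%). Members with exons that overlap another gene had 19 of 559 higher (3.40%) and those without 32 of 699 (4.58%). By gene, where 13.2% of all genes were higher, 105 of 579 (18.1%) were higher for genes with 3 or more exons, 29 of 360 (8.06%) for 2 exons and 16 of 194 (8.25%) for 1 exon.

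**Figure D4:**
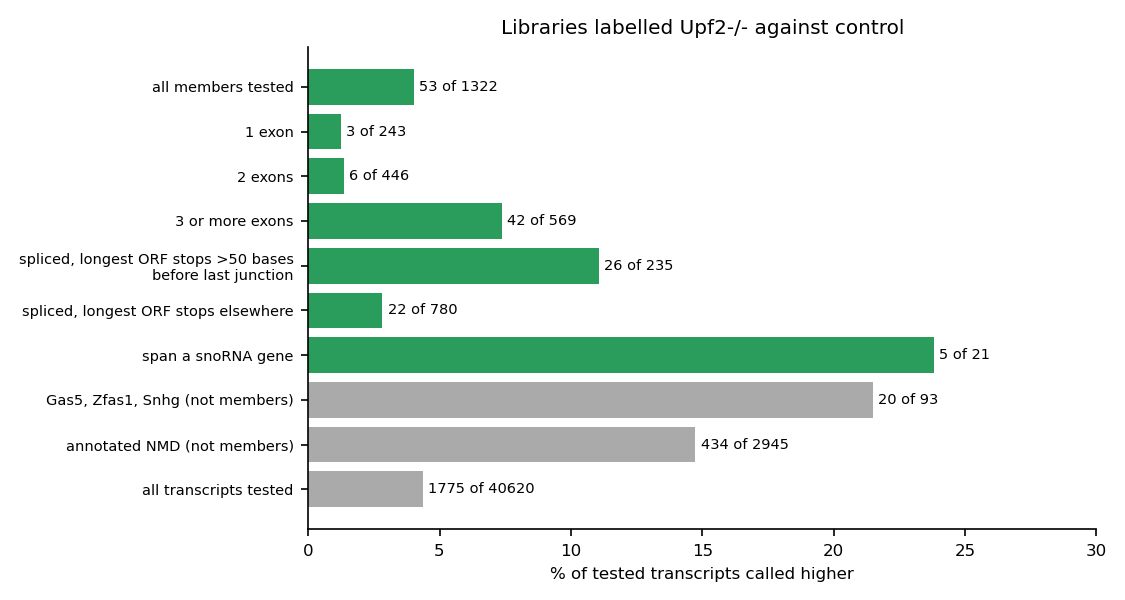
Bars give the percent of tested transcripts called higher in the labelled Upf2-/- libraries than in controls, for classes of members (green) and for other transcripts (grey), with the counts at the bar ends. Members with 3 or more exons (7.38%) and spliced members with an early stop of the longest ORF (11.1%) have longer bars than members with 1 or 2 exons (1.23% and 1.35%), where the share over all transcripts is 4.37%.

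**Figure D5:**
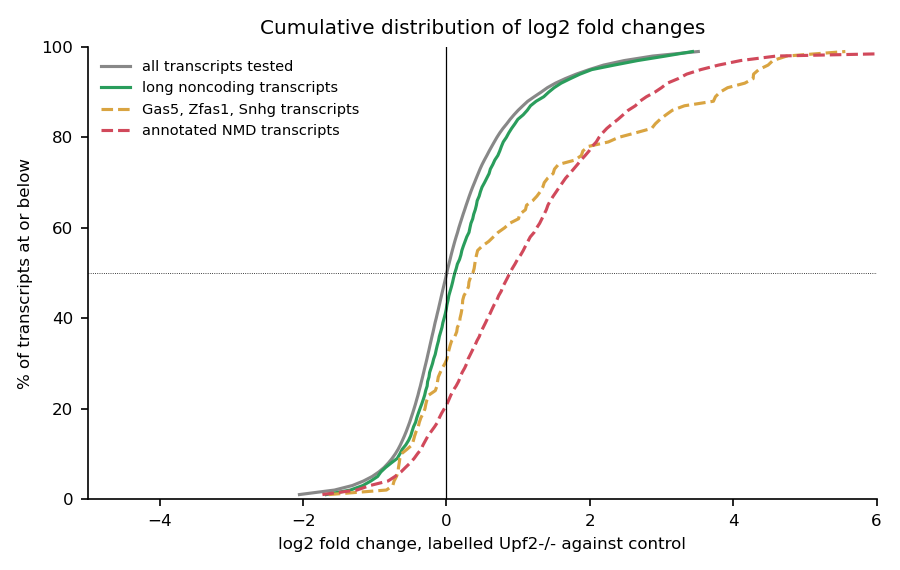
Lines give the cumulative percent of tested transcripts at or below each log2 fold change of the labelled Upf2-/- libraries against controls, for members, all transcripts, Gas5, Zfas1 and Snhg transcripts and annotated NMD transcripts. The line of the members (median 0.12) runs close to that of all transcripts (median 0.00) and to the left of that of annotated NMD transcripts (median 0.88).

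Of the 21 member genes lower in the labelled Upf2-/- libraries, 3 are described here, and they are not those with the largest changes. Calls lost among these 3 do not speak for the other lower genes. Gm50455, with 1 exon that overlaps Pknox1, was at 0.998, 1.01 and 1.02 TPM in controls and at 0.580, 0.405 and 0.525 TPM (log2 fold change -0.98, SE 0.23, edgeR adjusted p = 0.014). Its groups did not overlap, and its call was lost without labelled Upf2-/- replicate 2 (-0.79). Gm13470, a gene of chromosome 2, was at 2.74, 3.58 and 2.78 TPM in controls and at 1.52, 1.70 and 1.31 TPM in the labelled Upf2-/- libraries (log2 fold change -0.96, SE 0.29, edgeR adjusted p = 0.04). Its groups did not overlap, but the call was lost without any 1 of the 6 libraries (-1.07 to -0.88). A430010J10Rik was at 57.8, 30.8 and 33.9 TPM and at 25.4, 23.6 and 20.5 TPM (log2 fold change -0.92, SE 0.27, edgeR adjusted p = 0.037), and did not pass without control replicate 1 (-0.42) or any 1 of the labelled Upf2-/- libraries (-0.97 to -0.86).

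Loss of Pelo was examined next. By edgeR 0 of 884 tested members were higher in Pelo-/- libraries, where 0.722% of 34903 transcripts were, and 2 were lower (0.226%), where 1.64% of transcripts were. There were 82 members with an unadjusted p below 0.05, and DESeq2 called 10 higher and 19 lower, where it called 1938 and 2558 of all 34903 transcripts. The calls were Oip5os1-202, at 2.21, 3.03 and 2.84 TPM in controls and 1.74 and 1.36 TPM in Pelo-/- libraries, and Gm41724-201, at 22.7, 23.4 and 28.2 TPM and at 12 and 9.76 TPM. Without any 1 library edgeR called 0 of all transcripts, so those fits do not bear on these members. Both calls were also lost without a filter, where 528 transcripts were lower, and with all 11 libraries in 1 fit, where 970 were. Their log2 fold changes stayed between -1.11 and -0.86 and between -1.43 and -1.25 under the alternatives. By gene 39 of 773 were higher and 39 lower, 5.05% each, where 15.5% and 16.6% of all 14705 genes were, with a median log2 fold change of 0.00 over members and -0.01 over all genes. The 78 calls fell to 15 without Pelo-/- replicate 1 and to 15 without replicate 2, while calls over all genes fell from 2283 higher and 2444 lower to 633 and 1110 and to 532 and 974, where the lone library is taken to vary like the controls.

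Lower in Pelo-/- libraries were several named lncRNAs. Oip5os1, a conserved cytoplasmic RNA also known as Cyrano, was at 8.94, 8.26 and 10.7 TPM in controls and at 5.22 and 5.88 TPM in Pelo-/- libraries (log2 fold change -0.94, SE 0.10, edgeR adjusted p = 0.0013). Dnm3os, host of Mir199a-2 and Mir214, was at 0.927, 1.44 and 1.09 TPM and at 0.769 and 0.471 TPM (log2 fold change -1.27, SE 0.20, edgeR adjusted p = 0.0048). BC002059 was at 1.21, 1.94 and 1.33 TPM and at 0.358 and 0.281 TPM (log2 fold change -2.25, SE 0.29, edgeR adjusted p = 0.0023). These 3 genes did not overlap between groups and passed under every alternative that gave a value.

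Other calls missed the threshold when 1 Pelo-/- library was left out, with log2 fold changes of similar size. Pvt1 was at 9.21 and 7.04 TPM in Pelo-/- libraries, below all 3 controls (log2 fold change -0.67, SE 0.11, edgeR adjusted p = 0.0055), and did not pass without Pelo-/- replicate 2 (-0.60). Bc1 was at 860.2 and 836 TPM, also below all controls (log2 fold change -0.79, SE 0.14, edgeR adjusted p = 0.0063), and did not pass without Pelo-/- replicate 1 (-0.73). Tug1, a nuclear and cytoplasmic lncRNA, was at 11.98, 18.99 and 13.5 TPM in controls and at 11.4 and 9.34 TPM (log2 fold change -0.73, SE 0.17, edgeR adjusted p = 0.018), and did not pass without either Pelo-/- library (-0.83 and -0.63). 5530601H04Rik, which starts head to head with Pbdc1, was at 4.12, 4.54 and 2.35 TPM in controls, at 0.788 and 0.582 TPM in Pelo-/- libraries and at 8.74, 6.64 and 8.33 TPM in the labelled Upf2-/- libraries. Its call in Pelo-/- libraries (log2 fold change -1.90) was likewise lost without either Pelo-/- library (-2.10 and -1.77).

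Higher in Pelo-/- libraries was Neat1, at 3.23 and 4.09 TPM (log2 fold change 0.76, SE 0.22, edgeR adjusted p = 0.037), a call lost without control replicate 1 (0.67), control replicate 3 (0.65) or either Pelo-/- library (0.95 and 0.55). Gm29408, at 48.7, 117 and 90.3 TPM in controls and 232 and 165 TPM in Pelo-/- libraries, and AI506816, at 56.0, 98.6 and 98.9 TPM and at 162 and 168 TPM, were also called higher. Gm29408 (log2 fold change 1.08) was not called without control replicate 3 (1.11) or Pelo-/- replicate 1 (0.90), nor AI506816 (0.85) without either Pelo-/- library (0.92 and 0.76). Of 7 imprinted RNAs Peg13 and Meg3 were higher, of 12 miRNA hosts Dnm3os and Mir100hg were lower, and of 38 opposite strand genes 4 were higher and 3 lower, where 15.5% of all genes were higher and 16.6% lower. Without either Pelo-/- library the calls of Peg13 (0.42 and 0.43), Meg3 (0.56 and 0.24) and Mir100hg (-0.56 and -0.57) were lost, that of Meg3 also without control replicate 3 (0.35). The 4 skeletal muscle markers summed to 220 to 266 TPM in Pelo-/- libraries and to 172 to 188 TPM in controls, and 4 epithelial markers, of which Epcam and Cdh1 were below 1 TPM in every library, to 54.0 to 63.6 TPM and to 31.7 to 40.3 TPM. Macrophage markers summed to 87.6 to 134 TPM against 53.1 to 84.6 TPM, and 3 cartilage markers to 55.7 to 56.5 TPM against 36.9 to 54.0 TPM. Over all libraries the macrophage marker Lyz2 was at 39.9 to 114 TPM and the others at most at 9.79 TPM. The skeletal muscle markers Myod1 and Myog reached at most 0.606 and 2.45 TPM in any library. The part of these marker differences in the results was not tested.

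In Hbs1l-/- libraries member genes were called lower more often than higher. Of 1011 tested members 5 were higher (0.495%) and 6 lower (0.593%), where 0.734% and 0.579% of all 36633 transcripts were. Without any 1 of the 6 libraries edgeR called 0 of all transcripts, so those fits do not bear on these members. By gene 19 of 885 were higher (2.15%) and 85 lower (9.60%), where 12.7% of 15318 genes were higher and 10.4% lower. The median log2 fold change was -0.19 over member genes and -0.01 over all genes. The 104 calls fell to 68 without control replicate 1, 55 without control replicate 2, 69 without Hbs1l-/- replicate 1 and 47 without Hbs1l-/- replicate 2, while calls over all genes fell from 1944 higher and 1598 lower to 966 to 1363 higher and 851 to 1219 lower.

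H19 was the member with the largest level called in Hbs1l-/- libraries. It was at 880.5, 1353 and 1634 TPM in controls and at 4734, 3763 and 3034 TPM in Hbs1l-/- libraries (log2 fold change 1.54, SE 0.20, edgeR adjusted p = 0.0016). All Hbs1l-/- libraries were above all 8 others, since Pelo-/- and labelled Upf2-/- libraries lay between 876 and 1601 TPM. Of its 7 isoforms 3 were called higher, among them H19-202, which held most of the reads, and H19-205, whose log2 fold change of 1.78 ranged from 1.65 to 1.93 under the alternatives. Igf2os, which overlaps the neighbouring imprinted gene Igf2, was at 1.82, 2.37 and 2.23 TPM in controls, at 3.70, 3.25 and 3.74 TPM in Hbs1l-/- libraries and at 3.72 and 3.31 TPM in Pelo-/- libraries.

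Further increases were those of Gm20559 (0.706, 0.712 and 0.564 TPM in controls and 2.48, 3.47 and 1.64 TPM in Hbs1l-/- libraries), AW011738, CAAA01066123.1, U90926 and C130021I20Rik. CAAA01066123.1, with 1 exon within Rps6ka4, was at 18.2, 19.7 and 23.1 TPM and at 48.6, 39.0 and 36.6 TPM (log2 fold change 0.97, SE 0.13, edgeR adjusted p = 0.0021). U90926 was at 5.66, 10.4 and 9.65 TPM and at 18.6, 15.5 and 15.4 TPM, and 2 labelled Upf2-/- libraries reached similar levels at 17.6 and 16.8 TPM. These 5 genes and H19 passed under every alternative that gave a value.

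Decreases in Hbs1l-/- libraries included the following genes. Gm50397 (chromosome 18) was at 25.8, 18.9 and 19.5 TPM in controls and at 5.01, 5.95 and 9.27 TPM in Hbs1l-/- libraries (log2 fold change -1.67, SE 0.27, edgeR adjusted p = 0.0042), and its labelled Upf2-/- libraries were at 27.6 to 49.3 TPM. Gm567 was at 8.17, 5.51 and 5.29 TPM and at 0.771, 0.945 and 2.27 TPM (log2 fold change -2.24, SE 0.43, edgeR adjusted p = 0.0073). Gm47547 was at 4.52, 4.24 and 3.86 TPM and at 1.15, 1.31 and 1.51 TPM (log2 fold change -1.69, SE 0.18, edgeR adjusted p = 0.00096). Their groups did not overlap, and the calls of all 3 passed under every alternative that gave a value, as did those of Eprn, Gm34113, 2610204G07Rik, Gm15228, Gm50147 and A530046M15Rik, with log2 fold changes from -2.71 to -1.73. Malat1 was at 35.5, 46.4 and 40.3 TPM, below all controls (log2 fold change -0.68, SE 0.19, edgeR adjusted p = 0.031), but did not pass in 5 of 6 fits that left out 1 library (-0.80 to -0.52), the exception being control replicate 3. Bc1 (log2 fold change -0.51), Oip5os1 (-0.53), Peg13 (-0.44) and Trp53cor1 (-0.94) were also lower, and each of these calls was lost in 4 or 5 of the fits that left out 1 library. Of 7 imprinted RNAs 1 was higher (H19) and 1 lower (Peg13), of 4 genes linked to p53 1 was lower, of 13 miRNA hosts H19 and C430049B03Rik were higher, and of 50 opposite strand genes 2 were higher and 4 lower, where 12.7% of all genes were higher and 10.4% lower. The call of C430049B03Rik (log2 fold change 0.67) was lost by DESeq2, without a filter, after thinning and in 5 of 6 fits that left out 1 library (0.60 to 0.69), the exception being control replicate 1. The 7 tested Hox cluster lncRNAs, of which edgeR and DESeq2 called 0 and 4 had an unadjusted p below 0.05, had a median of -0.55.

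Marker sums also differed in Hbs1l-/- libraries. The 4 smooth muscle markers summed to 7648 to 8974 TPM against 12061 to 13726 TPM in controls, the 4 skeletal muscle markers to 57.7 to 91.8 TPM against 172 to 188 TPM, and the 5 endothelial markers, of which Cdh5 and Tek were below 1 TPM in every library, to 6.65 to 7.67 TPM against 15.3 to 20.6 TPM. The 5 macrophage markers summed to 102 to 136 TPM against 53.1 to 84.6 TPM, the 5 neural markers to 69.0 to 79.3 TPM against 91.8 to 126 TPM, and the epithelial markers to 14.5 to 23.97 TPM against 31.7 to 40.3 TPM. Several of these sums rest on few genes. Over all libraries Lyz2 was at 39.9 to 114 TPM and the other macrophage markers at most at 9.79 TPM. Tubb3 and Nes were the only neural markers above 2.72 TPM in any library, as Des and Acta1 were of skeletal muscle. Ptprc, Sox2 and Myod1 were below 1 TPM in every library. In the labelled Upf2-/- libraries the smooth muscle markers summed to 8933 to 10030 TPM, below all controls, the skeletal muscle markers to 107 to 171.7 TPM, also below all controls at 172.4 to 187.9 TPM, and the fibroblast markers to 3978 to 4974 TPM, which overlapped the controls at 4869 to 6503 TPM. The part of such differences in the members' values was not tested.

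The mutants were also compared with each other, without controls. Of 1203 members 54 were higher and 9 lower in labelled Upf2-/- than in Pelo-/- libraries (4.49% and 0.748%), where 4.97% and 3.82% of all transcripts were. Of 1369 members 128 were higher and 14 lower in labelled Upf2-/- than in Hbs1l-/- libraries (9.35% and 1.02%), where 6.66% and 4.14% were. Of 880 members 14 were higher and 12 lower in Pelo-/- than in Hbs1l-/- libraries (1.59% and 1.36%), where 4.15% and 4.27% were. Over all transcripts, leaving out 1 library moved the first comparison from 2002 higher and 1537 lower to 3 to 1323 and 1 to 1132. It moved the second from 2801 and 1739 to 1033 to 1671 and 296 to 789. The third moved from 1470 and 1513 to 0 to 1417 and 0 to 1557. For members, it moved the counts of 63, 142 and 26 to 0 to 33, 40 to 67 and 0 to 16. The first count was 0 without either Pelo-/- library, where 9 higher and 5 lower, and 3 higher and 1 lower, of all transcripts were called, and the last was 0 without either Pelo-/- library or Hbs1l-/- replicate 2, where 0 of all transcripts were called, so those fits do not bear on the members.

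Pvt1-205 was at 12.7, 10.1 and 8.04 TPM in labelled Upf2-/- libraries and at 0.167, 0.750 and 0.557 TPM in Hbs1l-/- libraries (log2 fold change 4.16, SE 0.50, edgeR adjusted p = 0.0072). H19-202 was at 823, 1504 and 848 TPM in labelled Upf2-/- libraries and at 4456, 3538 and 2838 TPM in Hbs1l-/- libraries (log2 fold change -1.80, SE 0.25, edgeR adjusted p = 0.011). Both differences left the groups apart. The comparisons with control share the 3 control libraries, so only each one's own values are given side by side.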

How the data were processed

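RNA of 11 MEF libraries was analysed, and the 30 footprint libraries were not used here. The authors sequenced poly(A)-selected RNA with the KAPA Stranded mRNA-Seq Kit (paired reads of 100 bases) and ran kallisto 0.42.4 on the Gencode M24 transcripts. They deposited estimated counts, which are not scaled, and TPM, which are scaled for length and library size to sum to 1000000. The kallisto options that the study states name no strand setting, and the index differs from the Gencode M21 annotation used for positions, in which 14811 members matched by versioned identifier and length and 221 did not.

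Estimated counts were rounded to whole numbers and, for genes, summed. For each comparison, edgeR 4.0.16 (R 4.3.3) was run on the libraries compared and on all transcripts or genes, with its default filter (10 counts), TMM factors, the quasi-likelihood test and Benjamini-Hochberg adjustment, and p-values adjusted to at most 0.05 were called. Folds against groups at 0 were set against 3 counts per library. The share of TPM was compared by a two-sided exact permutation test. Names were drawn from the targeted genes, the 10 most abundant member genes in controls and lists written from general knowledge. They also came from up to 10 transcripts in each direction (3 between mutants) with the largest log2 fold change. These transcripts were called, did not overlap between groups and had at least 0.5 TPM in the higher group. Not all of the names drawn are described. Among transcripts left out are Morrbid-247, which had the largest decrease by this rule in Hbs1l-/- libraries (log2 fold change -2.47), and 4933407K13Rik-204 (4.60 in labelled Upf2-/- libraries). ORFs are the longest from an ATG to a stop. The members and lists were chosen with earlier results of these data known. Replicates are separate embryos of 1 culture each.

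The fit was tested on simulated data. A member gene lower in the labelled Upf2-/- libraries is not reported here. Alternatives were DESeq2 1.42.0, RLE factors, other filters, all 11 libraries in 1 fit, thinning to the smallest total, a replicate block and leaving out each library. Leaving out snoRNA-spanning members, members on chromosomes X and Y, or, for genes, members that overlap another gene was chosen after seeing the data.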

Additional observations from a re-analysis of the deposited data

Results flagged for a closer look

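These transcripts were singled out because their difference between a pair of mutants passed the direct test (edgeR's quasi-likelihood test, adjusted p at most 0.05), and each value is a log2 fold change of the first group against the second. Between labelled Upf2-/- and Pelo-/- libraries the values were 11.62 for Tug1-202, 11.04 for Pvt1-207, 8.49 for Ftx-204, -1.30 for 6330403L08Rik-201, -1.27 for 9930014A18Rik-202 and -1.24 for Gm42047-201. The first 3 were listed at or near 0 in both Pelo-/- libraries, and set against 3 counts per library Tug1-202 was at least 85.5-fold, Pvt1-207 at least 57.3-fold and Ftx-204 at least 9.76-fold higher, and the fitted values are not sizes. Tug1 as a gene was at 11.4 and 9.34 TPM in the same Pelo-/- libraries.

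Between labelled Upf2-/- and Hbs1l-/- libraries they were 7.67 for 1300002E11Rik-205 (at least 6.88-fold), 4.58 for Gm47283-202, 4.16 for Pvt1-205, -8.73 for Rian-224 (at least 16.2-fold lower), -2.11 for H19-201 and -1.80 for H19-202. Rian as a gene was at 134, 140.04 and 120.2 TPM in labelled Upf2-/- and at 108, 138 and 124 TPM in Hbs1l-/- libraries, and these overlapped. Between Pelo-/- and Hbs1l-/- libraries they were 1.82 for 9930014A18Rik-202, 1.59 for Gm20632-201, 1.30 for Malat1-203, -10.90 for Tug1-202 (at least 50.7-fold lower), -7.69 for 1300002E11Rik-203 (at least 5.45-fold lower) and -4.51 for Gm20559-202. For Gm20559-202 the Pelo-/- libraries held 3 counts, and the ratio of Hbs1l-/- to Pelo-/- was 29.9 (95% interval 10.1 to 146, counting error only).

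Each difference between labelled Upf2-/- and Pelo-/- libraries was lost without either Pelo-/- library. Those of 6330403L08Rik-201 (-1.32 to -1.28), 9930014A18Rik-202 (-1.42 to -1.17) and Gm42047-201 (-1.46 to -0.96) were also lost without any 1 labelled Upf2-/- library, that of Tug1-202 without labelled Upf2-/- replicate 2 and that of Ftx-204 without labelled Upf2-/- replicates 2 or 3. Against Hbs1l-/- libraries, 1300002E11Rik-205 was lost without Hbs1l-/- replicate 2 or any 1 labelled Upf2-/- library, and H19-201 without Hbs1l-/- replicates 2 or 3 or labelled Upf2-/- replicates 1 or 3, while Gm47283-202, Pvt1-205, Rian-224 and H19-202 passed without any 1 library, though Rian-224 did not pass with all 11 libraries in 1 fit, and 3 of these 4 did not pass with a replicate block, the exception being Gm47283-202. Each difference between Pelo-/- and Hbs1l-/- libraries was lost without either Pelo-/- library. Those of Gm20632-201 and Malat1-203 were also lost without any 1 Hbs1l-/- library. Those of 9930014A18Rik-202 and Gm20559-202 were lost without Hbs1l-/- replicates 2 or 3, and that of Tug1-202 without Hbs1l-/- replicate 2. Under the alternatives, log2 fold changes ranged from 1.42 to 1.82 for Gm20632-201, 1.21 to 1.32 for Malat1-203 and 1.67 to 1.93 for 9930014A18Rik-202. That of Gm20559-202 ranged from -5.21 to -4.04. For H19-201, labelled Upf2-/- against Hbs1l-/-, the range was -2.52 to -1.93.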

How the results depend on the processing

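None of the 144 named results changed sign under the alternatives run for it. Many were picked as called and without overlap in these same libraries, so a change of sign was unlikely from the start. Of their 1788 alternative values, 1286 stayed on their side of the threshold and 502 lost it, and 39 named results passed under every alternative that gave a value. For members called in the labelled Upf2-/- libraries, DESeq2 gave 92 higher and 15 lower, a filter of 0.5 TPM in every library of 1 group 86 and 4, all 11 libraries in 1 fit 5 lower, and leaving out members that overlap another gene 34 higher, with members not matched to the annotation counted. Leaving out 1 library gave 18 to 36 higher and 0 to 1 lower. Over all transcripts DESeq2 called 3472 higher and 2167 lower of 40620, the TPM filter 2915 and 778 of 29279, the fit of all libraries 940 lower of 44485 and leaving out 1 library 511 to 1184 higher and 40 to 111 lower. For Pelo-/- libraries DESeq2 gave 10 higher and 19 lower, the TPM filter 1 and 7, the fit of all libraries 1 and 13, no filter 1 lower, and without overlapping members 1 lower, and leaving out 1 library 0 in both directions. Over all transcripts these gave 1938 and 2558 of 34903, 499 and 1060 of 28836, 780 and 970 of 44485, 528 lower of 92719 without a filter, and 0 without 1 library. For Hbs1l-/- libraries DESeq2 gave 13 higher and 38 lower, the TPM filter 21 lower, the fit of all libraries 20 lower, no filter 2 higher and 3 lower, without overlapping members 3 higher, and leaving out 1 library 0 in both directions. Over all transcripts these gave 2052 and 1686 of 36633, 519 lower of 27258, 556 lower of 44485, 134 and 131 of 98377 without a filter, and 0 without 1 library. Called genes numbered 79, 42 and 66 without overlapping members for the labelled Upf2-/-, Pelo-/- and Hbs1l-/- libraries, which follows from the fewer genes counted. They numbered 144 and 178 without a filter for Pelo-/- and Hbs1l-/-, and 99 to 157, 15 to 73 and 47 to 79 without 1 library. Over all genes no filter gave 2079 higher and 2977 lower for Pelo-/- and 2197 and 1898 for Hbs1l-/-, and leaving out 1 library 1370 to 2047 higher and 395 to 1154 lower, 532 to 2327 and 974 to 2475, and 966 to 1372 and 851 to 1291. Between mutants, DESeq2 gave 123 and the TPM filter 105 calls for labelled Upf2-/- against Pelo-/- libraries, and 67 and 46 for Pelo-/- against Hbs1l-/- libraries, where 15 remained in the count without overlapping members. For labelled Upf2-/- against Hbs1l-/- libraries no filter gave 72 and no overlapping members 85. Over all transcripts DESeq2 gave 3899 higher and 3462 lower and the TPM filter 3034 and 2150 for the first pair, 2943 and 3325, and 1952 and 2019, for the second, and no filter 1895 and 1255 for the third. Without 1 library these 3 counts of members ranged from 0 to 33, 0 to 16 and 40 to 67. In the same fits 3 to 1323 of all transcripts were higher and 1 to 1132 lower for the first pair. For the second 0 to 1417 were higher and 0 to 1557 lower, and for the third 1033 to 1671 and 296 to 789. The share of TPM differed from controls by -0.142, -0.421 and -0.312 percentage points for labelled Upf2-/-, Pelo-/- and Hbs1l-/- libraries, and without 1 library by -0.423 to 0.389, -0.702 to 0.110 and -0.594 to 0.218. The cause of these changes was not tested, except that fewer features were counted where members were left out.

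Each replicate was a separate embryo, and replicate numbers were not taken to mark shared days. Over 15 pairs with the same number, deviations from the group means correlated at r = -0.0805 to 0.0763, and not every library correlated best with its own number. With a replicate block, 7 members were higher in labelled Upf2-/- libraries and 0 lower, where 109 and 3 of all 40620 transcripts were, 0 and 0 members were called in Pelo-/- and 0 and 0 in Hbs1l-/- libraries, genes called numbered 164, 61 and 67 for labelled Upf2-/-, Pelo-/- and Hbs1l-/- libraries, and differences between mutants 0 (labelled Upf2-/- against Pelo-/-), 12 (against Hbs1l-/-) and 0 (Pelo-/- against Hbs1l-/-). Where the block gave 0 members it gave 0 of all transcripts, which says nothing of the members. For labelled Upf2-/- against Hbs1l-/- libraries it called 373 higher and 42 lower of all 42034. Over all genes the block called 2065 higher and 1249 lower of 15983 for labelled Upf2-/- libraries. It called 1307 and 1648 of 14705 for Pelo-/-, and 1468 and 1345 of 15318 for Hbs1l-/- libraries. With libraries thinned to the smallest total, 829 members in place of 1322 were tested for the labelled Upf2-/- libraries, and 57 were higher. Of all 33511 transcripts tested there, 1918 were higher.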
